A study of Homo sapiens with 6 samples.

Results

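The factors that start and elongate translation were followed as 67 protein-coding genes, out of 50868 gene identifiers measured. They were chosen by symbol alone: genes named EIF1 to EIF6 with their subunits, the eIF2 kinases (EIF2AK), the eIF4E-binding proteins (EIF4EBP) and the elongation factors EEF1 and EEF2. EIF4A3, a helicase of the exon junction complex, and Y-linked copies were left out. The symbols take in kinases and methyltransferases that act on the factors, and also EIF4ENIF1, EEF1E1 and a readthrough gene, EEF1E1-BLOC1S5. The RNA came from 3 libraries of cells transfected with an siRNA against SF3B4 and 3 libraries of cells transfected with a scramble siRNA, called NC in the labels. All 6 libraries were labelled A549, a human lung adenocarcinoma line, and all were grown in RPMI medium with fetal bovine serum. The sources used here give no siRNA sequence, dose or harvest time. SF3B4 encodes a protein of the SF3b splicing complex, which recognises intron branch points as a component of the U2 particle, and the study asked how its loss alters gene expression.

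SF3B4 itself stood at 22.0, 17.7 and 22.3 FPKM (fragments scaled by transcript length and library total) in SF3B4 siRNA replicates 1 to 3, against 88.6, 92.0 and 93.8 FPKM in scramble siRNA replicates 1 to 3. The SF3B4 siRNA libraries thus held 22.6% of the scramble mean (log2 fold change -2.15 ± 0.10 SE, adjusted p = 8.8e-05). For SF3B4 siRNA replicates 2 and 3 the genotype entries read SF3B5 and SF3B6, which are other SF3b genes, but titles and treatment entries read SF3B4 and were followed. The deposited tables are named after H1650, a different lung cancer line. Of 9 genes typical of A549, 4 reached a mean of 1 FPKM, while AKR1C1, AKR1C2, ALDH1A1 and ALDH3A1 were at most 0.107 FPKM, which goes against the label. All 6 carcinoma epithelium markers reached 1 FPKM. Of 11 markers of leukocytes, endothelium and fibroblasts 2 did, CD14 and COL1A1, and the leukocyte gene PTPRC was at 0 in every library. The summed level of these 11 was 7.29 to 9.01 FPKM in SF3B4 siRNA libraries and 3.92 to 4.38 FPKM in scramble siRNA libraries, and its part in the results was not tested. Depth was similar, at an implied 17513135 to 18545994 fragments per library.

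Translation starts when eIF2, carrying GTP and the initiator tRNA, joins the small ribosomal subunit together with eIF1, eIF1A, eIF3 and eIF5. The cap-binding complex eIF4F, made of the cap-binding protein eIF4E, the scaffold eIF4G and the helicase eIF4A, brings the mRNA. eIF2B recharges eIF2 with GTP, and stress kinases block that step by phosphorylating eIF2. eIF5B joins the large subunit. In elongation, eEF1A delivers aminoacyl-tRNAs, the eEF1B complex recharges eEF1A, and eEF2 moves the ribosome by a codon. The mRNAs of many of these factors begin with a terminal oligopyrimidine tract and are themselves controlled at translation, which RNA levels do not show.

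Sequence is shown for 7 of the 8 factors whose 3′ UTR carries either of 2 overlapping 7-base words, GCCTTCA and CCTTCAA, whether or not they changed. EIF3H, the other carrier, is named only. The sites are shown because these words were found earlier in these data in the 3′ UTRs of many genes that fell with SF3B4 siRNA. The words, searched on the transcript strand in the 3′ UTR of each gene's principal transcript in GENCODE 29 (GRCh38, the longest 3′ UTR where several transcripts ranked equally), are written in capitals. Each stretch is read 5′ to 3′ on the transcript. The EIF2S3 site lies at chrX:24077848-24077874 on the plus strand, that of EIF1AD at chr11:65997772-65997798 on the minus strand and that of EIF5A2 at chr3:170893261-170893287 on the minus strand. The pair of EEF2K sites lies at chr16:22285785-22285811 and chr16:22287063-22287089 on the plus strand. Those of EIF2AK1, EIF4EBP2 and EIF4G3 lie at chr7:6022366-6022392 on the minus strand, chr10:70424721-70424747 on the plus strand and chr1:20806875-20806901 on the minus strand.
EIF2S3: atctttttagGCCTTCAttttatgttt
EIF1AD: gtaaccttctGCCTTCActtccctctt
EIF5A2: caaagctataGCCTTCAtaagcaacct
EEF2K site 1: taaaatgggtCCTTCAAcaccttagtg
EEF2K site 2: acttattccaCCTTCAAaacctagttt
EIF2AK1: acttctgactCCTTCAAaacttaagca
EIF4EBP2: aagtgacttcCCTTCAAattccaacag
EIF4G3: atttccctccCCTTCAAgatgcacctc
Either word was present in 17.4% of the 8385 tested genes with an annotated 3′ UTR, in 32.9% of those that fell and in 9.19% of those that rose. Of the 59 tested translation factors it was present in 7 (11.9%). Among factors that fell, 2 of 10 carried it (EIF2S3 and EIF1AD), and among factors that rose, 1 of 8 (EEF2K). EIF3H, EIF2AK1, EIF4EBP2 and EIF4G3 carried it and were not called. The median 3′ UTR was 940 bases for all tested genes searched and 554 bases for the tested factors. It was 1040 bases for genes that fell and 799 bases for genes that rose. For factors that fell and rose it was 908 and 252 bases. The shares were not adjusted for length. The words came from genes that fell in these data, so their share among those genes is no separate support. The factor with the largest fall, EEF1G, has neither word in its 3′ UTR of 78 bases, and 2 copies of each elsewhere in the transcript searched. Matches outside the 3′ UTR also occur in EEF1A2 and EEF2K, which rose, and in EIF3A and EIF4G1, which fell. Not called but with such matches were EEF1A1, EEF2, EIF2AK3, EIF2D, EIF2S2, EIF3D, EIF3G, EIF3M, EIF4ENIF1 and EIF5B. No background share was counted for such matches. These matches are a description of sequence and not of binding.

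Of the 67 factors, 59 reached 1 FPKM in at least 3 of the 6 libraries and were tested. With limma on log2(FPKM + 0.1) and Benjamini-Hochberg adjustment over all 9685 tested genes, 8 rose and 10 fell at an adjusted p under 0.05. EIF2S3B passed the filter only through the scramble siRNA libraries, and 9 fell without it. The counts are 13.6% and 16.9% of the tested factors, beside a background of 16.0% of all tested genes that rose and 18.1% that fell. In either direction the share was 30.5% for the factors and 34.1% for all tested genes. The factors were thus called about as often as genes at large. Without SF3B4 siRNA replicate 1, or without SF3B4 siRNA replicate 3, 5 factors rose in place of 8. The changes were small: the median log2 fold change was -0.08, the interquartile range ran between -0.22 and 0.13, and none reached 2-fold. For all tested genes the median was 0.00 and the interquartile range ran between -0.27 and 0.24. The largest rise was 0.52 (EIF3F) and the largest fall -0.99 (EEF1G). The SF3B4 siRNA values did not overlap the scramble siRNA values in 29 of the 59 tested factors (49.2%), the 18 called and 11 not called, beside 49.5% of all tested genes. Counts within a complex rest on 14 or fewer tested genes and stand beside the same background.

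**Figure D1:**
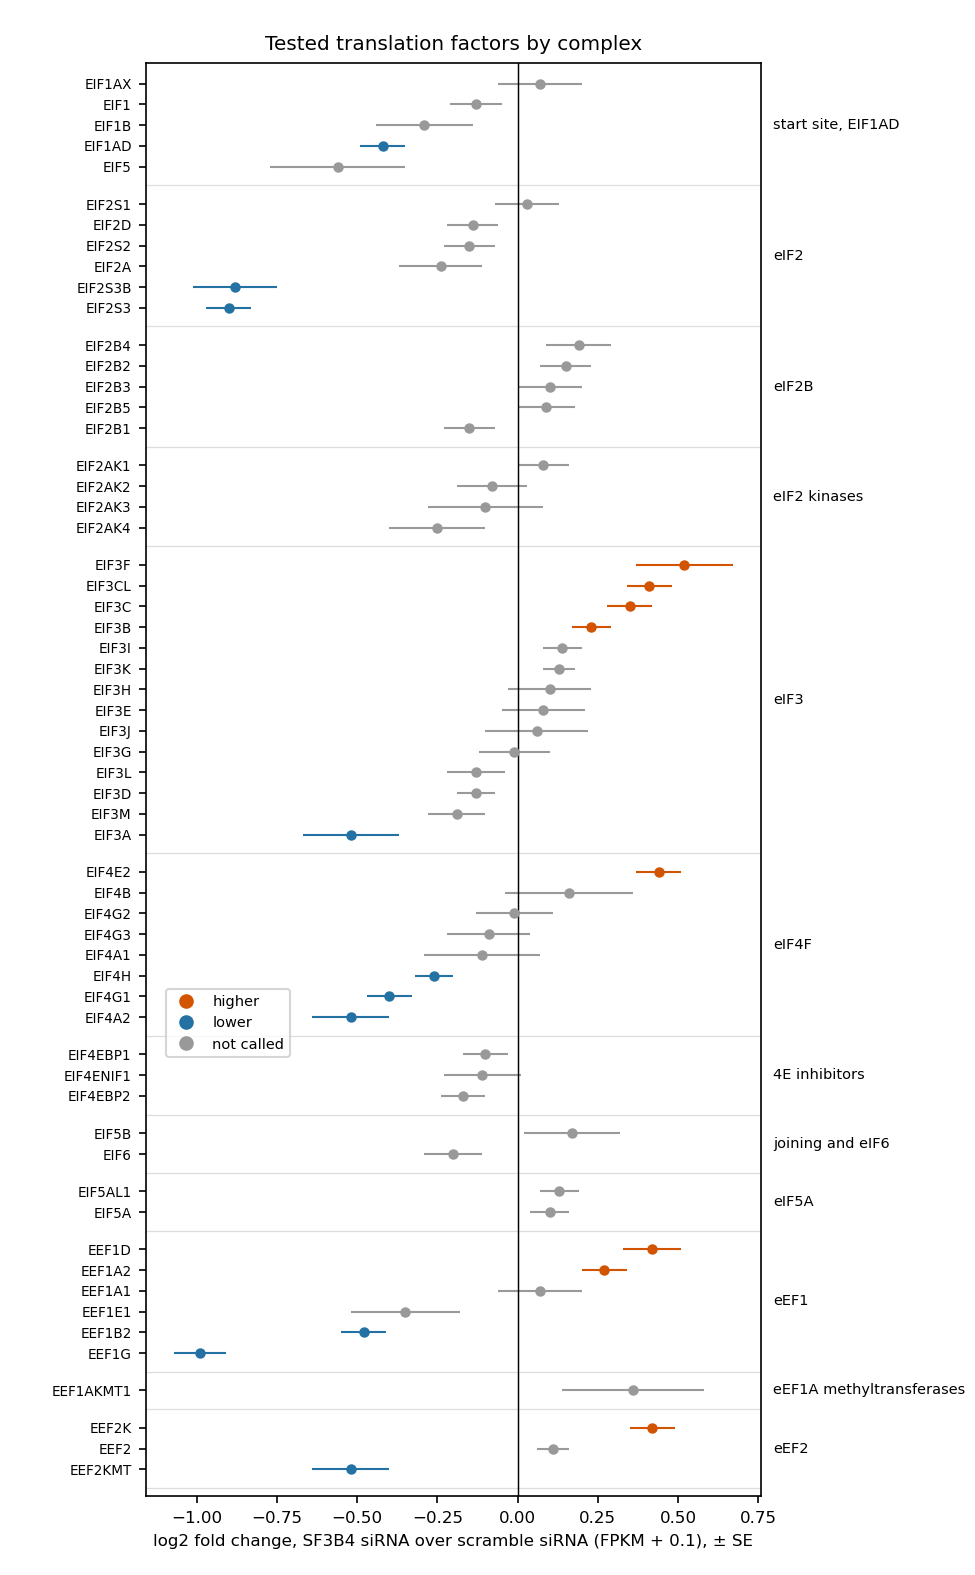
Log2 fold change (SF3B4 siRNA over scramble siRNA, FPKM + 0.1) of the 59 tested translation factors by complex, with bars of 1 SE. Colour marks an adjusted p under 0.05: 8 factors were higher and 10 lower (EIF2S3B among them, which passed the filter only through scramble siRNA libraries), with EEF1G (-0.99) and EIF2S3 (-0.90) farthest to the left.

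**Figure D2:**
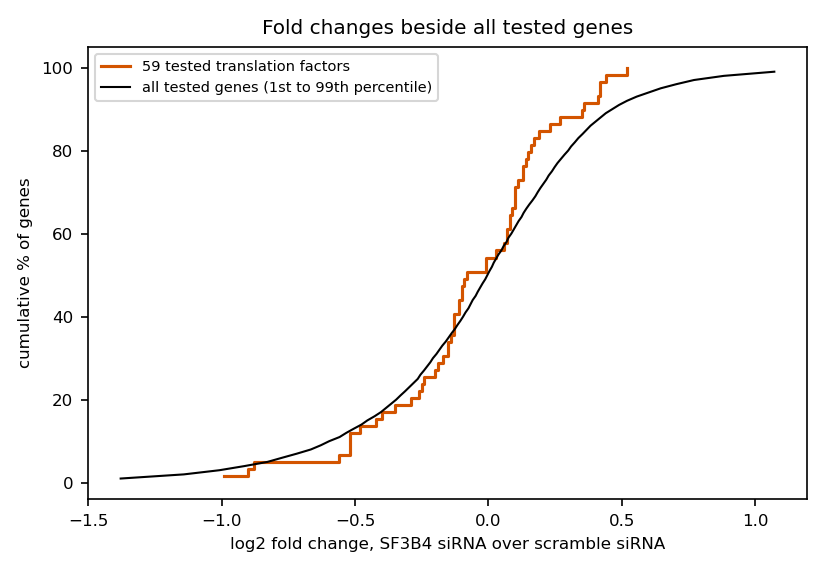
Cumulative share of genes by log2 fold change (SF3B4 siRNA over scramble siRNA) for the 59 tested translation factors and all 9685 tested genes. The median was -0.08 for the factors and 0.00 for all tested genes.

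As a share of all FPKM in a library, the 67 factors together held 0.931%, 0.914% and 0.949% in SF3B4 siRNA replicates 1 to 3 and 0.902%, 0.906% and 0.940% in scramble siRNA replicates 1 to 3. The groups overlapped in this total. In all, 7 factors averaged at least 100 FPKM under the gene itself, without pseudogene copies, and they were spread over several complexes: EEF1A2, EEF2, EIF3I, EIF6, EEF1G, EIF4EBP1 and EIF5A. RNA from bulk cultures cannot tell fewer cells of a kind from less RNA per cell.

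Many of these genes have processed pseudogenes, intronless copies of their mRNA, and the table places much of the signal there. Of the FPKM of gene and copies together, the copies held 97.6% for EEF1A1, 96.6% for EIF4E, 89.8% for EIF1AX, 85.2% for EIF3F, 81.0% for EIF5A, 75% for EIF4A1 and 71.1% for EIF4B. EEF1A1P5, a copy of EEF1A1, alone stood at 2283, 2320 and 2458 FPKM in SF3B4 siRNA replicates 1 to 3 and at 2683, 1914 and 2164 FPKM in scramble siRNA replicates 1 to 3. EEF1A1 itself stood at 60.3, 55.8 and 75 FPKM with SF3B4 siRNA and at 68.0, 53.7 and 59.9 FPKM with scramble siRNA. Both overlapped between groups. How reads were divided between a gene and its copies is not given in the sources used here, so the levels of these genes are uncertain. FPKM is scaled by length and a gene is longer than its copies, so these shares are not shares of fragments. Sums of gene and copies given below add FPKM, so fragments of the copies weigh more in them and in their fold changes.

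**Figure D3:**
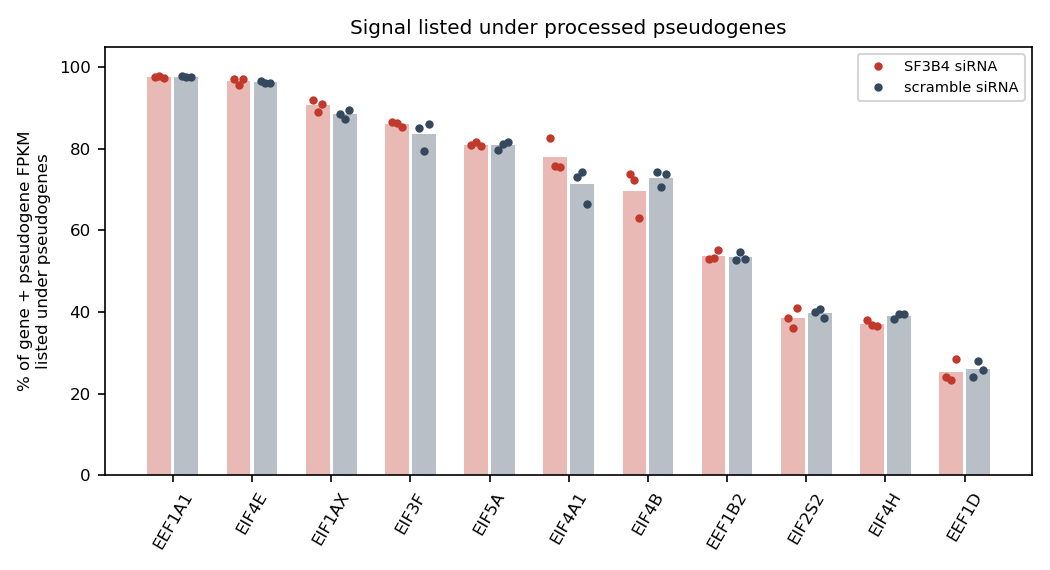
Share (%) of the FPKM of a translation factor gene and its pseudogene copies that was listed under the copies, with 1 point per library and a bar at the group mean, SF3B4 siRNA left of scramble siRNA. For EEF1A1, EIF4E and EIF3F the copies held 97.6%, 96.6% and 85.2% of the FPKM of gene and copies together.

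eIF2, the GTPase of 3 subunits that carries the initiator tRNA, had a called change in its gamma subunit and in no other subunit. EIF2S3, which encodes the gamma subunit that binds GTP and the tRNA (chrX:24054716-24077971, plus strand), stood at 9.15, 9.12 and 8.89 FPKM with SF3B4 siRNA and at 18.1, 16.7 and 16.3 FPKM with scramble siRNA. All SF3B4 siRNA libraries were far below all scramble siRNA libraries, with no overlap. EIF2S3 averaged 9.05 ± 0.145 FPKM with SF3B4 siRNA and 17 ± 0.917 FPKM with scramble siRNA (SD, n = 3 each). Its SF3B4 siRNA level was thus 53.1% of the scramble level (log2 fold change -0.90 ± 0.07, adjusted p = 0.0002). EIF2S3B, a near-identical autosomal copy of EIF2S3, stood at 0.641, 0.664 and 0.663 FPKM with SF3B4 siRNA and at 1.27, 1.34 and 1.25 FPKM with scramble siRNA. Its values did not overlap between groups, but it passed the filter on low values only through the scramble siRNA libraries, where it is high, and reads of the pair may be shared. It is therefore no separate support for a fall.

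The other eIF2 subunits were not called. EIF2S1, the alpha subunit that the stress kinases phosphorylate, stood at 6.0, 6.2 and 6.45 FPKM with SF3B4 siRNA and at 6.78, 5.95 and 5.62 FPKM with scramble siRNA, and the groups overlapped. EIF2S2, the beta subunit and the highest of the complex, stood at 19.9, 21.4 and 21.4 FPKM with SF3B4 siRNA and at 24.9, 23.4 and 21.3 FPKM with scramble siRNA, and the groups overlapped (-0.15 ± 0.08, adjusted p = 0.19). The ratio of gamma to alpha FPKM within a library was 1.53, 1.47 and 1.38 with SF3B4 siRNA and 2.66, 2.81 and 2.90 with scramble siRNA. The ratio was thus lower in each SF3B4 siRNA library than in any scramble siRNA library. EIF2A and EIF2D, which can bring initiator tRNA to the ribosome without eIF2, averaged 1.47 and 5.76 FPKM with SF3B4 siRNA, against 1.76 and 6.35 FPKM with scramble siRNA, and were not called.

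The 4 start-site factors EIF1, EIF1B, EIF1AX and EIF5, which act as the ribosome inspects the start codon, were not called, and 1 of them, EIF5, had an unadjusted p under 0.05. EIF1AD, which is grouped with them by name, is a nuclear protein with an eIF1A-like domain that takes part in the maturation of the small ribosomal subunit. It fell, and stood at 6.48, 6.70 and 6.66 FPKM with SF3B4 siRNA and at 9.09, 8.68 and 8.86 FPKM with scramble siRNA. The groups did not overlap and varied little within themselves (-0.42 ± 0.07, adjusted p = 0.0043). EIF1, which guards against wrong start codons, had the highest FPKM under the gene itself, at 12.1, 12.3 and 13.5 FPKM with SF3B4 siRNA and at 14.8, 13.4 and 13.2 FPKM with scramble siRNA, overlapping between groups. Summed with pseudogene copies, EIF1AX averaged 20.1 FPKM with SF3B4 siRNA and 15.5 FPKM with scramble siRNA. EIF1 summed with its copies averaged 14.5 FPKM with SF3B4 siRNA and 15.4 FPKM with scramble siRNA. The annotated exons of the EIF1AX copy EIF1AXP1 cover 435 bases and those of EIF1AX 4427 bases. Fragments of the copy therefore weigh more in the EIF1AX sum, which does not rank the genes. EIF5, the GTPase-activating protein of eIF2, had the largest log2 fold change of the not called factors (-0.56 ± 0.21, adjusted p = 0.079). Its values of 3.22, 1.80 and 2.25 FPKM with SF3B4 siRNA and 4.20, 3.19 and 3.24 FPKM with scramble siRNA overlapped.

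None of the 5 eIF2B subunits and none of the 4 eIF2 kinases were called, by limma with adjustment over all tested genes, and 0 of these 9 had an unadjusted p under 0.05. For eIF2B, the exchange factor of eIF2, log2 fold changes ran from -0.15 (EIF2B1) to 0.19 (EIF2B4). EIF2B2 was the highest subunit, at 10.3, 10.2 and 10.3 FPKM with SF3B4 siRNA and 9.35, 9.72 and 8.75 FPKM with scramble siRNA. Its groups did not overlap (0.15 ± 0.08, adjusted p = 0.17). Among the kinases, the heme-regulated EIF2AK1 was highest, at 26.5, 24.4 and 24.4 FPKM with SF3B4 siRNA and 26.2, 22.2 and 22.8 FPKM with scramble siRNA, with overlap. EIF2AK2 (PKR, activated by double-stranded RNA), EIF2AK3 (PERK, of the endoplasmic reticulum) and EIF2AK4 (GCN2, activated by uncharged tRNA) averaged 2.99, 1.71 and 1.09 FPKM with SF3B4 siRNA, against 3.17, 1.81 and 1.31 FPKM with scramble siRNA. Exons of EIF2AK1 overlap AIMP2 on the opposite strand over 9.59% of their length, and without a stated strand setting the reads cannot be told apart.

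**Figure D4:**
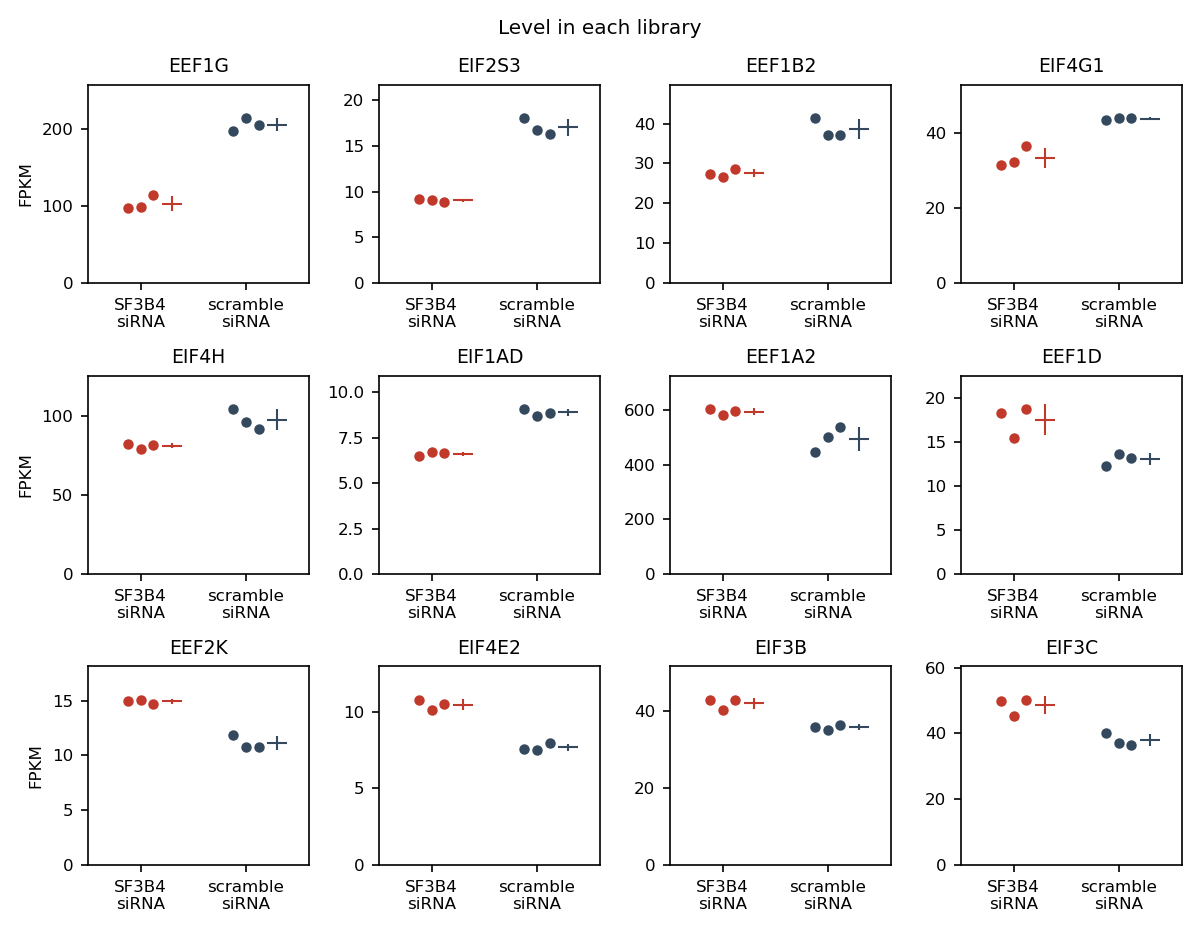
FPKM of 12 of the 18 called translation factors in each library, SF3B4 siRNA left of scramble siRNA. Each library has 1 point, with a bar of the mean ± SD beside the points. The called EIF2S3B, EIF3A, EIF3CL, EIF3F, EIF4A2 and EEF2KMT are not shown. The SF3B4 siRNA points of EEF1G (96.9 to 114 FPKM) and EIF2S3 (8.89 to 9.15 FPKM) lie below all of their scramble siRNA points.

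eIF3, the largest initiation factor and the platform that holds the others on the small subunit, had 4 genes that rose and 1 that fell of 14 tested, or 35.7% called, beside 34.1% of all tested genes. EIF3C and EIF3CL, 2 of the 4 that rose, may share reads. EIF3A, its largest core subunit, stood at 4.86, 5.75 and 6.46 FPKM with SF3B4 siRNA and at 9.70, 6.81 and 8.24 FPKM with scramble siRNA. The scramble siRNA libraries were spread widely, and the groups came close without overlapping (-0.52 ± 0.15, adjusted p = 0.034). EIF3B, the core subunit that binds EIF3A, stood at 42.9, 40.5 and 43.1 FPKM with SF3B4 siRNA and at 35.9, 35.1 and 36.6 FPKM with scramble siRNA, with no overlap (0.23 ± 0.06, adjusted p = 0.022). The ratio of EIF3B to EIF3A FPKM averaged 7.51 ± 1.15 with SF3B4 siRNA and 4.44 ± 0.727 with scramble siRNA (SD, n = 3 each).

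EIF3C, another core subunit, stood at 50.0, 45.4 and 50.3 FPKM with SF3B4 siRNA and at 40.2, 37.2 and 36.6 FPKM with scramble siRNA (0.35 ± 0.07, adjusted p = 0.0077). EIF3CL, its near-identical neighbour on chromosome 16, stood at 98.5, 89.6 and 102 FPKM with SF3B4 siRNA and at 70.6, 70.8 and 75.7 FPKM with scramble siRNA (0.41 ± 0.07, adjusted p = 0.0035). Neither overlapped between groups, and reads may be shared between the pair; they are not separate observations. EIF3F, a subunit with a deubiquitinase-like fold, stood at 6.39, 6.58 and 6.90 FPKM with SF3B4 siRNA and at 3.94, 5.91 and 4.14 FPKM with scramble siRNA, with no overlap (0.52 ± 0.15, adjusted p = 0.034). Its copy EIF3FP3, on chromosome 2, stood higher, at 41.1, 41.7 and 40.4 FPKM with SF3B4 siRNA and at 22.7, 22.9 and 25.5 FPKM with scramble siRNA. It rose more clearly (0.79 ± 0.07, adjusted p = 0.00027), and the gene summed with its copies rose by 0.75 ± 0.06 (adjusted p = 0.00027). The annotated exons of EIF3FP3 cover 1086 bases and those of EIF3F 9431 bases, so fragments of the copy weigh more in this sum.

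Of these eIF3 calls 3 were lost in some of the 14 other settings tried. The call of EIF3A was lost without SF3B4 siRNA replicate 1 or 2, without scramble siRNA replicate 1 or 3, with no filter on low values and with the replicate number as a block, with adjusted p between 0.018 and 0.1 over the settings. EIF3F lost its call without SF3B4 siRNA replicate 1, 2 or 3, without scramble siRNA replicate 1 or 3 and with no filter (0.00027 to 0.1). EIF3B lost its call without SF3B4 siRNA replicate 1 or 3, without scramble siRNA replicate 2 and without limma's trend and robust options (0.018 to 0.082). The calls of EIF3C and EIF3CL were kept in all 14.

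The 9 other eIF3 genes had log2 fold changes between -0.19 (EIF3M) and 0.14 (EIF3I) and were not called. EIF3I was the highest eIF3 gene in every library and EIF3J, a loosely bound subunit, the lowest, 64.6 to 92.6 times apart. EIF3I stood at 169, 178 and 186 FPKM with SF3B4 siRNA and at 159, 160 and 166 FPKM with scramble siRNA, with no overlap (adjusted p = 0.1). EIF3D, which can bind the cap of some mRNAs, averaged 47.3 ± 1.51 FPKM with SF3B4 siRNA and 51.6 ± 1.89 FPKM with scramble siRNA (SD, n = 3 each; -0.13 ± 0.06, adjusted p = 0.15). EIF3E and EIF3H, peripheral subunits, averaged 10.3 and 15.2 FPKM with SF3B4 siRNA and 9.66 and 14.0 FPKM with scramble siRNA.

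**Figure D5:**
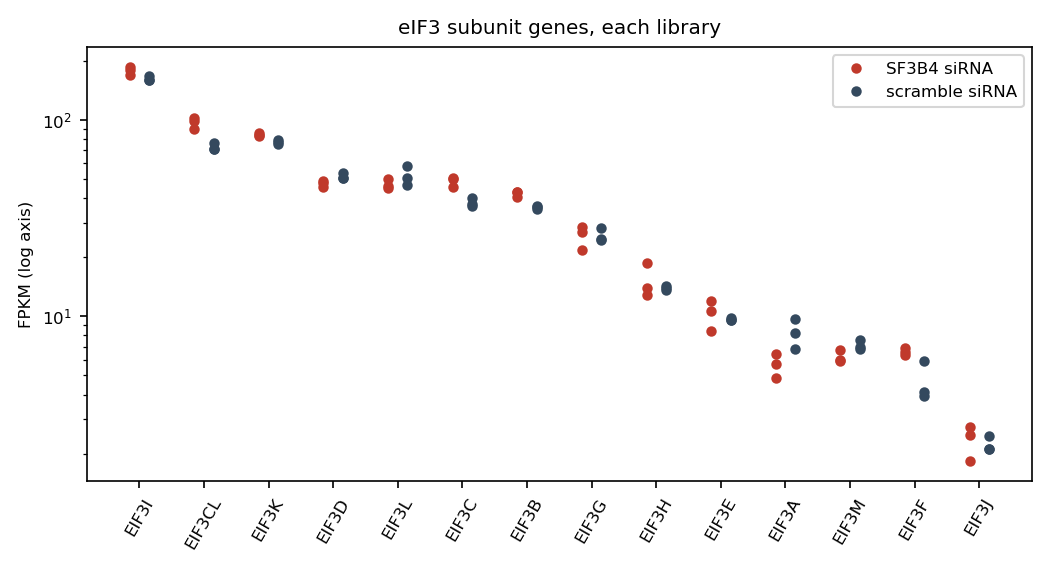
FPKM of the 14 eIF3 genes in each library on a log axis, SF3B4 siRNA libraries and scramble siRNA libraries in separate colours. EIF3I lies highest and EIF3J lowest in all 6 libraries.

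In the cap-binding complex eIF4F and its helpers, 1 gene rose and 3 fell of 8 tested, or 50.0% called, beside 34.1% of all tested genes. So few genes do not set the complex apart from that background. EIF4G1, the scaffold that joins cap, helicase and poly(A)-binding protein (chr3:184314495-184335358, plus strand), stood at 31.3, 32.1 and 36.4 FPKM with SF3B4 siRNA and at 43.3, 44.0 and 43.8 FPKM with scramble siRNA. The groups did not overlap (-0.40 ± 0.07, adjusted p = 0.0055). Its relatives EIF4G2 and EIF4G3 averaged 5.66 and 2.17 FPKM with SF3B4 siRNA and 5.72 and 2.33 FPKM with scramble siRNA, and were not called.

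EIF4E2, also called 4EHP, binds the cap but not eIF4G and is known as a repressor of translation. It stood at 10.8, 10.1 and 10.5 FPKM with SF3B4 siRNA and at 7.57, 7.50 and 7.95 FPKM with scramble siRNA, with no overlap (0.44 ± 0.07, adjusted p = 0.0039). EIF4E, the main cap-binding protein, was below the filter, at 0.453, 0.524 and 0.411 FPKM with SF3B4 siRNA and 0.708, 0.640 and 0.478 FPKM with scramble siRNA. Its copy EIF4EP2 stood far above it, at 15.6, 11.3 and 14.4 FPKM with SF3B4 siRNA and 20.9, 15.5 and 12 FPKM with scramble siRNA. Gene and copies overlapped between groups, and summed they were not called (-0.22 ± 0.21, adjusted p = 0.46). EIF4E1B, known from oocytes, was listed at 0 in every library, and EIF4E3 averaged 0.133 FPKM with SF3B4 siRNA and 0.113 FPKM with scramble siRNA.

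Of the helicase genes, EIF4A2 stood at 1.32, 1.44 and 1.38 FPKM with SF3B4 siRNA and at 2.31, 1.85 and 1.90 FPKM with scramble siRNA. The groups did not overlap (-0.52 ± 0.12, adjusted p = 0.016), and the call was lost without SF3B4 siRNA replicate 1 (0.053). EIF4A1, the more abundant helicase, stood at 11.1, 15 and 16.1 FPKM with SF3B4 siRNA and 13.2, 13.6 and 18.7 FPKM with scramble siRNA, and was not called. Its copy EIF4A1P10 rose (0.43 ± 0.07, adjusted p = 0.0037), and gene and copies summed stood at 64.3, 62.2 and 65.9 FPKM with SF3B4 siRNA, against 48.8, 53.1 and 55.8 FPKM with scramble siRNA. The summed FPKM rose by 0.29 ± 0.07 (adjusted p = 0.015). The annotated exons of EIF4A1P10 cover 1216 bases and those of EIF4A1 5316 bases, so fragments of the copy weigh more in the sum. It is therefore not a measure of total EIF4A1 RNA. EIF4A1 exons are also shared with a readthrough gene, SENP3-EIF4A1, whose 58.2, 3.33 and 2.71 FPKM with SF3B4 siRNA and 6.31, 6.85 and 0.141 FPKM with scramble siRNA differed widely within groups. AC016876.2, a processed transcript, covers 41.1% of the EIF4A1 exons on the same strand. It stood at 9.95, 23.6 and 24.2 FPKM with SF3B4 siRNA and 16.8, 9.47 and 4.09 FPKM with scramble siRNA, with overlap. Neither was part of the sum of EIF4A1 and its copies.

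EIF4H, which stimulates the helicase, was the highest gene of this complex, at 82.7, 79.6 and 82.2 FPKM with SF3B4 siRNA and 105, 96.6 and 92.2 FPKM with scramble siRNA, with no overlap. It fell by a small amount (-0.26 ± 0.06, adjusted p = 0.018), and the call was lost without SF3B4 siRNA replicate 2 (0.056). Its copy EIF4HP1 fell as well (-0.38 ± 0.07, adjusted p = 0.0039). EIF4B, the other helicase helper, averaged 14.0 ± 4.34 FPKM with SF3B4 siRNA and 12.2 ± 1.01 FPKM with scramble siRNA and was not called (adjusted p = 0.58).

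None of the 3 tested eIF4E inhibitors were called by limma, and 1, EIF4EBP2, had an unadjusted p under 0.05. EIF4EBP1, the binding protein that mTORC1 switches off by phosphorylation, was the highest, at 131, 126 and 128 FPKM with SF3B4 siRNA and 129, 133 and 149 FPKM with scramble siRNA, with overlap (-0.10 ± 0.07, adjusted p = 0.32). It was called after quantile normalization only (adjusted p = 0.03). EIF4EBP2 stood at 18.8, 18.7 and 18.7 FPKM with SF3B4 siRNA and 22.6, 20.2 and 20.6 FPKM with scramble siRNA, without overlap (-0.17 ± 0.07, adjusted p = 0.094). EIF4ENIF1, which carries eIF4E into the nucleus, averaged 2.43 FPKM with SF3B4 siRNA and 2.64 FPKM with scramble siRNA. EIF4EBP3 was near 0, at no more than 0.0826 FPKM.

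The late initiation factors and eIF5A held no call by limma, and 0 of these 4 tested genes had an unadjusted p under 0.05. EIF5B, which joins the subunits, averaged 1.34 ± 0.156 FPKM with SF3B4 siRNA and 1.18 ± 0.172 FPKM with scramble siRNA (0.17 ± 0.15, adjusted p = 0.43). EIF6, which keeps the large subunit from joining too early, stood at 170, 180 and 149 FPKM with SF3B4 siRNA and at 174, 203 and 194 FPKM with scramble siRNA, with overlap (-0.20 ± 0.09, adjusted p = 0.12). EIF5A, the hypusine-bearing factor that helps ribosomes through stalling peptides, stood at 134, 125 and 134 FPKM with SF3B4 siRNA and at 127, 121 and 118 FPKM with scramble siRNA, with overlap (0.10 ± 0.06, adjusted p = 0.23). EIF5AL1, a near-identical copy with which reads may be shared, stood at 48.5, 48.6 and 47.2 FPKM with SF3B4 siRNA and at 42.7, 43.5 and 45.8 FPKM with scramble siRNA (adjusted p = 0.13).

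EIF5A2, the second eIF5A gene, was too low for the test but far apart between groups. It stood at 0.0345, 0.05 and 0.0733 FPKM with SF3B4 siRNA and at 0.356, 0.247 and 0.216 FPKM with scramble siRNA, and the SF3B4 siRNA mean was 19.3% of the scramble mean. Spread over its whole exonic length, these values correspond to 3.38 to 7.61 fragments with SF3B4 siRNA and 21.9 to 36.3 fragments with scramble siRNA. In a fit with no filter on low values, over 24450 genes, its log2 fold change was -1.28 ± 0.23 (adjusted p = 0.019). The gene was singled out after its values were seen.

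The eEF1 group held the largest fall. EEF1G, the gamma subunit of the eEF1B exchange complex (chr11:62559601-62574086, minus strand), stood at 96.9, 99.1 and 114 FPKM with SF3B4 siRNA and at 197, 215 and 206 FPKM with scramble siRNA. All SF3B4 siRNA libraries were far below all scramble siRNA libraries, with no overlap. EEF1G averaged 103 ± 9.56 FPKM with SF3B4 siRNA and 206 ± 9.02 FPKM with scramble siRNA (SD, n = 3 each). Its SF3B4 siRNA level was thus 50.3% of the scramble level (log2 fold change -0.99 ± 0.08, adjusted p = 0.00018). AP002990.1, a protein-coding gene model, covers 99.9% of the EEF1G exons on the same strand and fell as well, to 1.65 ± 0.798 FPKM with SF3B4 siRNA, against 6.37 ± 2.44 FPKM with scramble siRNA (adjusted p = 0.014). Reads of the EEF1G exons may be shared between them.

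The catalytic subunits of eEF1B moved in opposite directions. EEF1B2, the alpha subunit, stood at 27.4, 26.7 and 28.7 FPKM with SF3B4 siRNA and at 41.5, 37.2 and 37.1 FPKM with scramble siRNA, with no overlap (-0.48 ± 0.07, adjusted p = 0.0021). EEF1D, the delta subunit, stood at 18.3, 15.5 and 18.8 FPKM with SF3B4 siRNA and at 12.3, 13.6 and 13.2 FPKM with scramble siRNA, with no overlap (0.42 ± 0.09, adjusted p = 0.012). The ratio of EEF1G to EEF1D was 5.30, 6.41 and 6.08 with SF3B4 siRNA and 16.0, 15.8 and 15.6 with scramble siRNA. This ratio follows from the fall of EEF1G and the rise of EEF1D and is no separate observation. The difference between the genes was not tested. The ratio of EEF1G to EEF1B2 averaged 3.74 ± 0.230 with SF3B4 siRNA and 5.35 ± 0.539 with scramble siRNA (SD, n = 3 each). Summed with their pseudogene copies, both kept their direction (EEF1B2 -0.47, adjusted p = 0.0025; EEF1D 0.41, adjusted p = 0.026).

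EEF1A2, the eEF1A form of muscle and neurons that is raised in some tumours, had the highest FPKM under the gene itself, at 605, 580 and 595 FPKM with SF3B4 siRNA and 448, 501 and 536 FPKM with scramble siRNA. Summed with its copies, EEF1A1 stood above it, at 2685 ± 119 FPKM with SF3B4 siRNA and 2562 ± 442 FPKM with scramble siRNA. Fragments of the shorter copies weigh more in this sum, so the order of EEF1A1 and EEF1A2 is not settled. The EEF1A2 groups did not overlap, and the scramble siRNA libraries were the more spread (593 ± 12.8 and 495 ± 44.7 FPKM, SD, n = 3 each; 0.27 ± 0.07, adjusted p = 0.026). The call was lost without SF3B4 siRNA replicate 1, 2 or 3, without scramble siRNA replicate 2, with no filter and without the trend and robust options (0.0088 to 0.073 over the settings). EEF1E1, a scaffold of the aminoacyl-tRNA synthetase complex also called AIMP3, averaged 1.51 FPKM with SF3B4 siRNA and 1.96 FPKM with scramble siRNA and was not called (adjusted p = 0.15). The readthrough gene EEF1E1-BLOC1S5 was at 0 in all SF3B4 siRNA libraries and at 0.571, 0.00 and 0.717 FPKM in scramble siRNA libraries, below the filter.

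EEF2, the translocase, stood at 308, 288 and 297 FPKM with SF3B4 siRNA and 272, 278 and 279 FPKM with scramble siRNA, without overlap (0.11 ± 0.05, adjusted p = 0.14). EEF2K, the kinase that switches EEF2 off, stood at 15, 15.1 and 14.7 FPKM with SF3B4 siRNA and at 11.9, 10.8 and 10.8 FPKM with scramble siRNA, without overlap (0.42 ± 0.07, adjusted p = 0.004). The kinase rose while the change of its substrate did not pass the test, and the difference between the genes was not tested. EEF2KMT, a lysine methyltransferase of EEF2, stood at 1.53, 1.36 and 1.63 FPKM with SF3B4 siRNA and at 2.37, 2.23 and 2.03 FPKM with scramble siRNA, without overlap (-0.52 ± 0.12, adjusted p = 0.013). ALG1 on the opposite strand overlaps 29.3% of the EEF2KMT exons, and the strand setting is not given in the sources used here. Of the eEF1A methyltransferases EEF1AKMT1 was tested and not called, at 1.04, 0.821 and 1.13 FPKM with SF3B4 siRNA and 0.664, 1.02 and 0.606 FPKM with scramble siRNA, and EEF1AKMT2 and EEF1AKMT3 were below the filter.

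Around the factors, a list of 64 other translation genes was counted in the same fit. Of 51 tested, 7 rose (13.7%) and 8 fell (15.7%), beside 16.0% and 18.1% of all tested genes, with a median log2 fold change of 0.00. The number that rose was 4, 3, 3 and 2 without SF3B4 siRNA replicate 2, SF3B4 siRNA replicate 3, scramble siRNA replicate 2 and scramble siRNA replicate 3. In the mTORC1 arm, which controls the eIF4E-binding proteins, 2 of 9 fell and 1 rose, or 33.3% called, beside 34.1% of all tested genes. AKT1S1 (PRAS40), an inhibitor within mTORC1, stood at 14.3, 15.6 and 18.1 FPKM with SF3B4 siRNA and 26.6, 30.2 and 31.4 FPKM with scramble siRNA (-0.88 ± 0.10, adjusted p = 0.00092). MLST8, an mTOR partner, fell by 0.52 on the log2 scale (adjusted p = 0.01), and neither gene overlapped between groups. RPS6KB2, an S6 kinase, rose (0.30, adjusted p = 0.043).

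On the cap side, MKNK2, a kinase of eIF4E, stood at 8.76, 8.02 and 8.39 FPKM with SF3B4 siRNA and 4.97, 4.99 and 4.83 FPKM with scramble siRNA, with no overlap (0.75 ± 0.08, adjusted p = 0.00055). PDCD4, an inhibitor of eIF4A, rose too (0.51 ± 0.16, adjusted p = 0.045). Of the 9 tested genes of the eIF2 phosphatase and stress arm, PPP1CC, a phosphatase catalytic subunit, fell (-0.55, adjusted p = 0.0085), while DELE1, which relays mitochondrial stress to EIF2AK1, and IMPACT, an inhibitor of EIF2AK4, rose (0.44 and 0.41, adjusted p = 0.0095 and 0.04). ATF4, the transcription factor translated when eIF2 is phosphorylated, stood at 97.1, 105 and 107 FPKM with SF3B4 siRNA and 87.7, 95.0 and 89.4 FPKM with scramble siRNA and was not called (0.18, adjusted p = 0.06). The groups of ATF4 did not overlap.

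Of 7 tested genes that modify eIF5A and eEF2, 2 fell and none rose, or 28.6% called, beside 34.1% of all tested genes. DHPS, the first enzyme of hypusine synthesis on eIF5A, stood at 5.33, 4.88 and 3.19 FPKM with SF3B4 siRNA and 6.63, 6.97 and 6.75 FPKM with scramble siRNA, with no overlap (-0.62 ± 0.18, adjusted p = 0.032). DPH2, of diphthamide synthesis on eEF2, fell by 0.38 (adjusted p = 0.029). In recycling and rescue, ABCE1, which splits ribosomes, fell (-0.61, adjusted p = 0.011) and PELO rose (0.37, adjusted p = 0.019). MCTS1, a partner of DENR in reinitiation, rose (0.33, adjusted p = 0.018), and SEPHS2, of selenocysteine synthesis, fell (-0.26, adjusted p = 0.02). GFM2, a mitochondrial recycling factor, stood at 1.94, 1.64 and 2.08 FPKM with SF3B4 siRNA and 4.30, 3.57 and 3.76 FPKM with scramble siRNA, the largest fall called in this list (-1.0 ± 0.13, adjusted p = 0.0011). The calls of RPS6KB2, PDCD4, IMPACT, DPH2, DHPS, MCTS1, PELO and SEPHS2 were each lost in 3 to 9 of the 14 settings, among them the removal of a single library, with adjusted p up to 0.14.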

How the data were processed

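Total RNA of 6 libraries was sequenced, per the labels' protocols. The authors deposited FPKM values, 1 per gene in each library. The submitters' processing notes list HISAT2 2.0.4, StringTie 1.3.0 and GRCh38 with no roles. Annotation, strand setting and the handling of multi-mapped reads were not given in the sources used here. Identifiers were matched to symbols (49659 of 50868) and to GENCODE 29 (50111), which may differ from the authors' annotation. In genes with 1 exon, FPKM times length moved in steps, and 94.9% to 95.1% of low values lay within 0.02 of a whole fragment. A tested gene of median exonic length (4127 bases) held 72.3 to 76.5 fragments per FPKM.

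Genes with at least 1 FPKM in at least 3 libraries were tested with limma 3.58.1 in R 4.3.3 (trend and robust options, two-sided) on log2(FPKM + 0.1), which understates changes of low genes, with Benjamini-Hochberg adjustment over 9685 genes and a threshold of 0.05. The fit was tested on simulated data. Values are given for every library for the 8 largest called rises and the 8 largest called falls and for the highest gene of each complex, and for some others. Alternatives were another pseudocount (1 or 0.01), no filter, TPM, quantile normalization, no trend and robust options, the replicate number as a block and leaving out each library. Summing each gene with its pseudogenes was chosen after seeing the data. The genes and lists were chosen with earlier results of these data known. Titles number biological replicates without naming separate cultures, so the p-values reflect only the spread among these samples, which may be technical.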

Additional observations from a re-analysis of the deposited data

How the results depend on the processing

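Of the 18 called translation factors, 12 kept their call in all 14 alternatives, 6 lost it in at least 1, and 0 changed direction. Over the fits that left out 1 library, 5 to 7 factors rose and 8 to 10 fell, 1094 to 1492 of all tested genes rose and 1331 to 1604 fell, and 2 to 8 other translation genes rose and 6 to 7 fell. With no filter on low values 3 other translation genes rose, in place of 7. Samples with the same replicate number did not deviate together (correlations of -0.08, 0.0243 and -0.118). For samples with different numbers the correlations were -0.0653 to 0.144. With so few libraries, these values cannot show whether same-numbered samples were handled together. With the replicate number as a block, 8 factors rose and 10 fell, 5 other translation genes rose and 7 fell, and 1290 of all tested genes rose and 1537 fell. The causes of these shifts were not tested. Depth limits the lowest factors. Over its whole exonic length, EIF5A2 would hold 3.38 to 7.61 fragments per library with SF3B4 siRNA and 21.9 to 36.3 with scramble siRNA. These are estimates and not counted fragments.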
